A study of Homo sapiens with 192 samples.

Results

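The genes described here encode the serine/arginine-rich splicing factors (SR proteins, symbols starting with SRSF) and the heterogeneous nuclear ribonucleoproteins (hnRNP proteins, symbols starting with HNRNP). Every protein-coding gene with such a symbol in the annotation was taken, which gave 39 members (12 SRSF and 27 HNRNP genes) among the 58243 genes listed in the count data. They were followed in 4 human cell lines derived from colorectal cancer, namely HT29, HCT116, LS513 and LS174T. Each line gave 3 libraries from cells in 2D growth and 3 from cells in 3D growth. No other treatment or introduced genetic change is given for any of the 8 groups. The lines differ in their own genetic profiles. The paper treats HT29 and LS513 as microsatellite stable and HCT116 and LS174T as microsatellite instable. HCT116 was kept in McCoy medium and the other lines in DMEM, so that line and medium cannot be told apart, and the way the 3D cultures for RNA were made is not given in the sources used here. The comparisons ask how the level of each member differed between 3D and 2D growth in each line, whether that difference varied between lines, and how the level itself varied between lines.

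SR proteins carry an RNA recognition motif and a domain of repeated arginine and serine residues, bind enhancer sequences in exons and help to recruit the spliceosome, and their activity and location are set by phosphorylation through the CLK and SRPK kinases. The hnRNP proteins coat nascent pre-mRNA, often bind silencer sequences and oppose the use of nearby splice sites, and many also act in mRNA export, stability and translation. Many of these genes control their own level through alternative exons that expose the transcript to nonsense-mediated decay. Counts per gene, as deposited here, sum over such isoforms.

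A library held between 18723942 and 34277421 counts (median 30777613). Levels are given in CPM (counts relative to library size, scaled by the TMM method), as mean ± SD of 3 libraries. The labels do not say whether the 3 libraries of a group came from separate cultures, so p-values measure the spread between these libraries, which may be technical. A total of 34 members (11 SRSF and 23 HNRNP) passed the filter on low counts and were tested among 19387 genes. The 5 others had almost no counts. SRSF12, an SR-like splicing repressor, had 2 counts summed over the 24 libraries, and the HNRNPC-like genes HNRNPCL1, HNRNPCL2, HNRNPCL3 and HNRNPCL4 had 12, 4, 0 and 9. Reads that aligned more than once were removed by the authors. Any reads that the HNRNPC-like genes share with each other or with HNRNPC are therefore missing, and their low counts do not show that they were silent. A floor of 3 counts in a library is between 0.0875 and 0.160 CPM, and it covers counting error only. Among the epithelial markers EPCAM, KRT8, KRT18 and KRT19 were above 212 CPM in every library, whereas CDX1 was at 0 in 5 libraries. Of 12 markers of fibroblasts, leukocytes and endothelium, COL1A2 and CD3E were at 0 in all 24 libraries, and the 12 summed to between 0.449 and 23.6 CPM per library.

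Levels between genes are compared per kb of annotated exon, averaged over the 24 libraries with the SD over them. Among the hnRNP genes, HNRNPAB (174 ± 21.2 CPM per kb), HNRNPK (163 ± 14.9) and HNRNPA2B1 (158 ± 24.8) stood highest. The lowest of the 23 tested were HNRNPA1P48 (0.688 ± 0.473), HNRNPA1L2 (2.16 ± 0.579), both copies of HNRNPA1, and HNRNPLL (7.67 ± 1.5), which regulates CD45 splicing in lymphocytes. Among the tested SR genes, SRSF2 (100.4 ± 14.6), SRSF1 (95.2 ± 16.0) and SRSF6 (55.9 ± 14.7) were at the top. SRSF11 (13.4 ± 2.64), SRSF4 (11.6 ± 2.10) and SRSF10 (11.4 ± 2.45) were at the bottom. The highest mean was 8.82 times the lowest among the tested SR genes and 252 times among the tested hnRNP genes. The 2 ratios depend on which low genes passed the filter. The near-silent SRSF12 was left out, whereas HNRNPA1P48, whose level is uncertain because multi-mapped reads were removed, set the hnRNP minimum. Neighbours in this order mostly did not differ beyond their spread, as HNRNPAB, HNRNPK and HNRNPA2B1 show, and with the longest transcript as the length HNRNPK led at 283 CPM per kb and SRSF9 at 108.

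**Figure D1:**
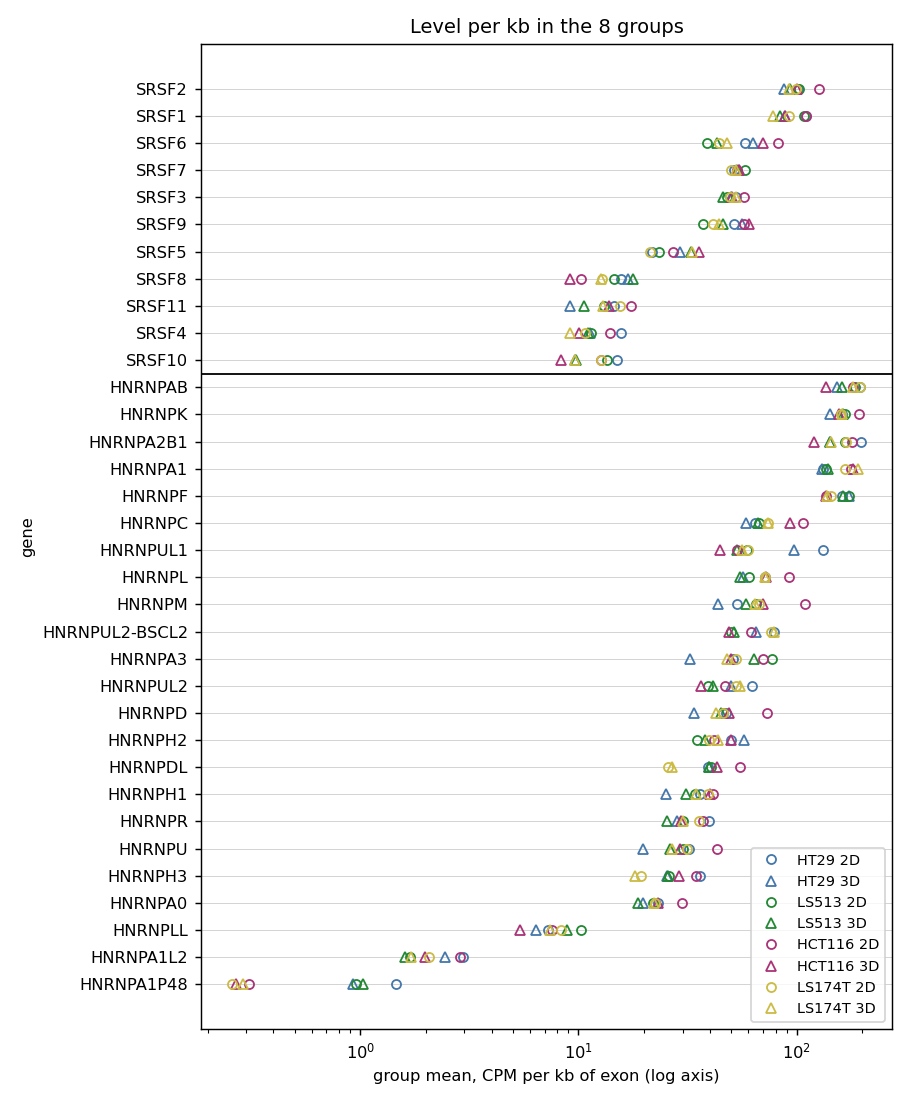
Group means of the 34 tested members in CPM per kb of exon (log axis), 1 row per gene, circles for 2D and triangles for 3D growth, coloured by line. HNRNPAB, HNRNPK, HNRNPA2B1, HNRNPA1 and HNRNPF lie furthest right, and HNRNPA1P48 and HNRNPA1L2 lie far left of all others.

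Most members whose level differed between growth conditions were lower in 3D. On the mean of the 4 lines, 22 of the 34 tested members were lower and 3 were higher (adjusted p under 0.05 in edgeR's quasi-likelihood test, adjusted over all tested genes), against backgrounds of 23.9% lower and 26.6% higher among all tested genes. The members that fell most on this mean were SRSF10 (log2 fold change -0.53 ± 0.063 SE), HNRNPU (-0.42 ± 0.042), HNRNPA3 (-0.40 ± 0.042) and SRSF11 (-0.40 ± 0.046), and the 3 that rose were SRSF5 (0.48 ± 0.076), HNRNPH2 (0.18 ± 0.042) and SRSF9 (0.15 ± 0.036). By family, 17 of 23 hnRNP genes and 5 of 11 SR genes fell, and 1 hnRNP and 2 SR genes rose. One of the 17, HNRNPUL2-BSCL2, is a read-through gene that shares its exons with HNRNPUL2 and BSCL2. Abundant genes were called more often, and among genes with a mean of at least 20 CPM 36.8% were lower, compared with 21 of the 32 members at that level.

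The fall was broad in HT29 and HCT116 and narrow in LS513 and LS174T. In HT29, 18 of 34 members were lower and 1 was higher, against 19.6% and 21.1% of all tested genes, and 30.9% of genes of at least 20 CPM were lower, compared with 17 of 32 members. HCT116 had 21 lower and 1 higher, against backgrounds of 12.3% and 16.8%, and 20 of 32 against 19.7% at 20 CPM or more. For LS513 the counts were 6 lower and 3 higher, against 9.9% and 13.7%, and 6 of 32 against 13.9%. LS174T had 4 lower and 1 higher, against 9.15% and 13.1%, and 4 of 32 against 14.0%, so the share of members called lower in LS174T lay near the background. The median log2 fold change of the 34 members was -0.28 in HT29, -0.34 in HCT116, -0.084 in LS513 and -0.059 in LS174T, where the median over all tested genes was 0.00017, 0.011, 0 and 0.016. With median-of-ratios (RLE) scaling in place of TMM the split was 3 lower and 3 higher in LS513 and 2 lower and 1 higher in LS174T. These counts also differed in how far they rested on single libraries. With 1 library left out at a time, between 15 and 19 members were lower in HT29 and between 17 and 20 in HCT116. In LS513, 3 were lower without any 1 of the 2D libraries, 0 without 3D replicate 1 or 2, and 8 without 3D replicate 3. In LS174T, 0 were lower without any 1 of the 2D libraries or 3D replicate 2, 1 without 3D replicate 1, and 6 without 3D replicate 3.

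Over the lines, 3 members (SRSF10, SRSF11 and HNRNPA2B1) were lower in all 4, 4 (HNRNPA3, HNRNPAB, HNRNPA0 and SRSF4) in 3, 8 in 2 and 9 in 1. Of all tested genes, 2.46% were lower in exactly 4 lines, 3.86% in 3, 7.4% in 2 and 14.7% in 1, and of those of at least 20 CPM 4.64% in 4 and 6.34% in 3. SRSF5 alone was higher in 3 lines, as 5.25% of all tested genes were. No member was called in opposite directions in different lines. In fits to the 6 libraries of LS174T alone, SRSF10, SRSF11 and HNRNPA2B1 were not called in that line (adjusted p = 0.12, 0.113 and 0.186). The log2 fold change was below 0 in all 4 lines for 19 members and 21.9% of all tested genes, and 6 members and 39.1% of all tested genes were called in no line.

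**Figure D2:**
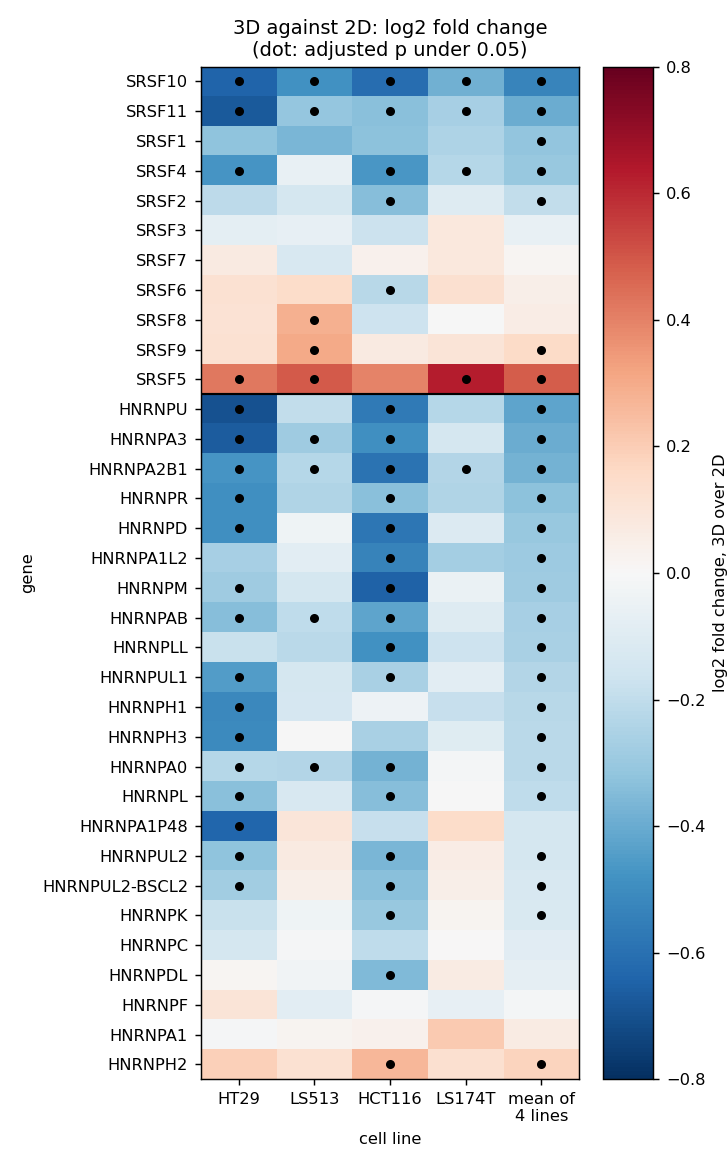
Log2 fold change of 3D over 2D growth for the 34 tested members (rows, SR genes above the line and hnRNP genes below) in each line and on the mean of the 4 lines (columns), where blue is lower in 3D and a dot marks an adjusted p under 0.05. The HT29 and HCT116 columns hold 18 and 21 blue cells with a dot, and SRSF5 is the 1 row that is red in every column with dots in 3 lines.

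The members are spread over 17 chromosomes. The 300 bases from 250 before to 50 after the start of each gene in RefSeq (GRCh38.p14) were found for 31 of the 34 tested members. These promoters had a median G+C content of 64.0% and a median of 30 CG dinucleotides, against 58.7% and 14 over 35116 promoters of all genes. Both strands were searched for 7 short motifs. The GC box GGGCGG was present in 67.7% of the member promoters and 45.0% of all promoters, CCAAT in 51.6% and 34.6%, the E-box CACGTG in 22.6% and 7.26%, CCGGAAG of the ETS type in 16.1% and 10.3%, TATAAA in 16.1% and 11.5%, the palindromic CGCG element in 6.45% (SRSF10 and HNRNPK) and 0.424%, and the YY1 element in 0 and 0.849%. A match is a run of letters, not a shown binding site. The promoters of all genes were not limited to genes that passed the filter on low counts, as the member promoters were. The windows of HNRNPUL2 and HNRNPUL2-BSCL2 overlap, and both were counted.

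The stretches before the RefSeq start that no annotated exon covers are shown for 4 members that fell together in at least 3 lines, with motif matches in capitals, 5′ to 3′ on the strand of the gene. They lie at chr1:70221130-70221369 (plus strand), chr5:137754377-137754613 (minus strand), chr5:178204283-178204506 (plus strand) and chr1:29181988-29182150 (minus strand). The start that RefSeq gives for SRSF11 lies inside the wider GENCODE span of that gene, so its stretch is not upstream of every annotated transcript. SRSF11 had a TATAAA match in reverse in a T- and A-rich stretch, HNRNPA0 and HNRNPAB had GC boxes and CCAAT boxes, and SRSF4 had an ETS type match in reverse. The windows of SRSF10, HNRNPA2B1, HNRNPA3 and SRSF5 lie almost wholly in exons of other annotated transcripts and are not printed.
SRSF11: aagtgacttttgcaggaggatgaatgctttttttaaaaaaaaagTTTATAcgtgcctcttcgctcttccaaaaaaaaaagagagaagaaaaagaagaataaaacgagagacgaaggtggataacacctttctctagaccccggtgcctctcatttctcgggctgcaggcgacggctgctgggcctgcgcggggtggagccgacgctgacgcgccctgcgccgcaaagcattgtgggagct
HNRNPA0: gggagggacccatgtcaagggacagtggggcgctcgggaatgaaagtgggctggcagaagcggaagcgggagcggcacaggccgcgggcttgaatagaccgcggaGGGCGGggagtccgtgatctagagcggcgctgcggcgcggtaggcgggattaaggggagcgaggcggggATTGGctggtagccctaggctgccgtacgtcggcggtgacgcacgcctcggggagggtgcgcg
HNRNPAB: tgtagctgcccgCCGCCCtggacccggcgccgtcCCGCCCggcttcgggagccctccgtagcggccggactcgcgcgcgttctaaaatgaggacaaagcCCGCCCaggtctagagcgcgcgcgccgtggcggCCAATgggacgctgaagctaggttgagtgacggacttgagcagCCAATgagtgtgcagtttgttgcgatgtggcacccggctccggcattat
SRSF4: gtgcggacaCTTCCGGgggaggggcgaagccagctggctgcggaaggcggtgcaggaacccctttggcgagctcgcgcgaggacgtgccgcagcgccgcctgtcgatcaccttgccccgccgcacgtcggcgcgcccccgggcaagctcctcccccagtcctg

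The summed level of each family gives 1 number per library, in which abundant genes weigh most. The length trend described below was not removed from the sums, and such sums were not compared with those of other gene sets. HNRNPUL2-BSCL2 was left out of the sums. The HT29 libraries held 9444, 9552 and 9647 CPM of hnRNP transcripts in 2D and 7864, 7323 and 7703 in 3D, a difference of -20.1% between the means. In HCT116 the hnRNP sum was 10496, 10194 and 10893 CPM in 2D and 7747, 8345 and 8786 in 3D, a difference of -21.2%. The hnRNP sums of the 3D libraries also lay below all 2D libraries in LS513, with a difference of -8.04%, and in LS174T, with -4.70%. In LS174T the abundant HNRNPA2B1 had means of 1562 CPM in 2D and 1329 in 3D, and HNRNPU 710 and 605. Of the 23 tested hnRNP genes, 15 had a log2 fold change below 0 in LS174T and 1 was called lower. The SR sum differed by -7.69% in HT29 (2243, 2300.3 and 2401 CPM in 2D, 2100.3, 2203 and 2108 in 3D) and by -12.1% in HCT116, with no overlap of libraries. In LS513 (-4.51%) and LS174T (-0.485%) the SR sums of the 2D and 3D libraries overlapped. With 3 libraries against 3, an exact two-sided permutation test of 1 such value cannot go below p = 0.1. In these bulk libraries, fewer cells of a type and less RNA per cell cannot be told apart.

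**Figure D3:**
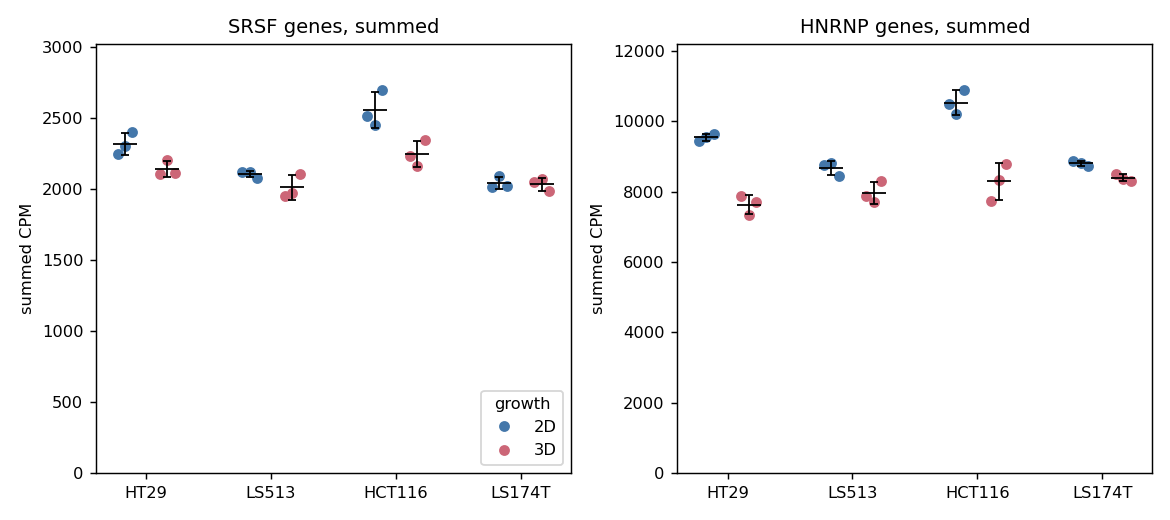
Summed CPM of the SR genes (left) and the hnRNP genes without HNRNPUL2-BSCL2 (right) in each library (points), with the mean and SD of 3 libraries, for 2D (blue) and 3D (red) growth in each line. In the right panel every 3D library lies below every 2D library of its line, and in the left panel this holds for HT29 and HCT116.

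SRSF10 and SRSF11 were the SR genes lower in every line. SRSF10 (chr1:23964804-23980927 on GRCh38, minus strand) encodes an SR protein that acts as a general splicing repressor when dephosphorylated, as after heat shock. It was measured at 148, 149 and 166 CPM in the HT29 libraries in 2D and at 92.2, 101 and 104 CPM in 3D (log2 fold change -0.64 ± 0.13 SE, adjusted p = 0.000337). The values in HCT116 were 131, 128 and 130.2 CPM in 2D and 79.7, 77.7 and 98.4 in 3D (-0.61 ± 0.13, adjusted p = 0.000889). No 3D library of either line reached the lowest 2D library, and SRSF10 fell by 35.9% in HT29 and by 34.4% in HCT116. LS513 gave 138, 141 and 139 CPM in 2D and 88.8, 87.0 and 124 in 3D (-0.48 ± 0.13, adjusted p = 0.00688), and LS174T gave 127, 133 and 129 and 101, 79.9 and 117 (-0.38 ± 0.13, adjusted p = 0.0319). In both of these lines 3D replicate 3 lay closest to the 2D libraries. The LS513 call was lost without 3D replicate 1 or 2 (adjusted p up to 0.058), and the LS174T call was lost without 2D replicate 1, 2 or 3 or 3D replicate 1 or 2 (adjusted p up to 0.206).

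SRSF11 (chr1:70205682-70253052, plus strand), the gene with the TATAAA match shown above, encodes p54, an SR-related protein of the spliceosome, and showed the same order. HT29 libraries held 122, 118 and 129 CPM in 2D and 69.4, 84.4 and 77.5 in 3D (-0.67 ± 0.092, adjusted p = 5.77e-06), a level that fell by 37.3%. In HCT116 they held 146, 159 and 139 and 116, 110.3 and 124 (-0.34 ± 0.091, adjusted p = 0.00748). The smaller differences were those of LS513 (-0.31 ± 0.091, adjusted p = 0.0153) and LS174T (-0.26 ± 0.091, adjusted p = 0.0397). The 2D and 3D libraries of SRSF11 did not overlap in any line. The HCT116 call was lost without 2D replicate 2 (adjusted p = 0.0504), the LS513 call was lost without 2D replicate 1 or 3D replicate 1 or 2 (adjusted p up to 0.122), and the LS174T call was lost without 2D replicate 1, 2 or 3 or 3D replicate 1 or 2 (adjusted p up to 0.146). The difference between lines in its growth effect did not pass the threshold (adjusted p = 0.0779).

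SRSF5 went the other way. The gene (chr14:69726900-69772005, plus strand) encodes SRp40, a close relative of SRSF4 and SRSF6. Its level was 109, 120.1 and 114 CPM in the LS174T libraries in 2D and 204, 163 and 164 in 3D (0.63 ± 0.15, adjusted p = 0.00567), and 122, 125 and 129 against 180.3, 173 and 173 in LS513 (0.49 ± 0.15, adjusted p = 0.0221). HT29 gave 118, 119 and 111 CPM in 2D and 174, 149 and 144 in 3D (0.42 ± 0.15, adjusted p = 0.0298), so that in these 3 lines all 3D libraries lay above all 2D libraries. In HCT116 the libraries overlapped, at 114, 139 and 182 CPM in 2D and 221, 216 and 133 in 3D (0.39 ± 0.15, adjusted p = 0.0545), where 2D replicate 3 was the highest and 3D replicate 3 the lowest of its group. Without 1 or the other of these libraries the adjusted p was 0.00569 or 0.00183. The HT29 call was lost without 2D replicate 1, 2 or 3 or 3D replicate 1 (adjusted p up to 0.133), and the LS513 call was lost without 2D replicate 1 or 2 or 3D replicate 1 or 2 (adjusted p up to 0.073). That of LS174T held without each of its libraries in turn.

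**Figure D4:**
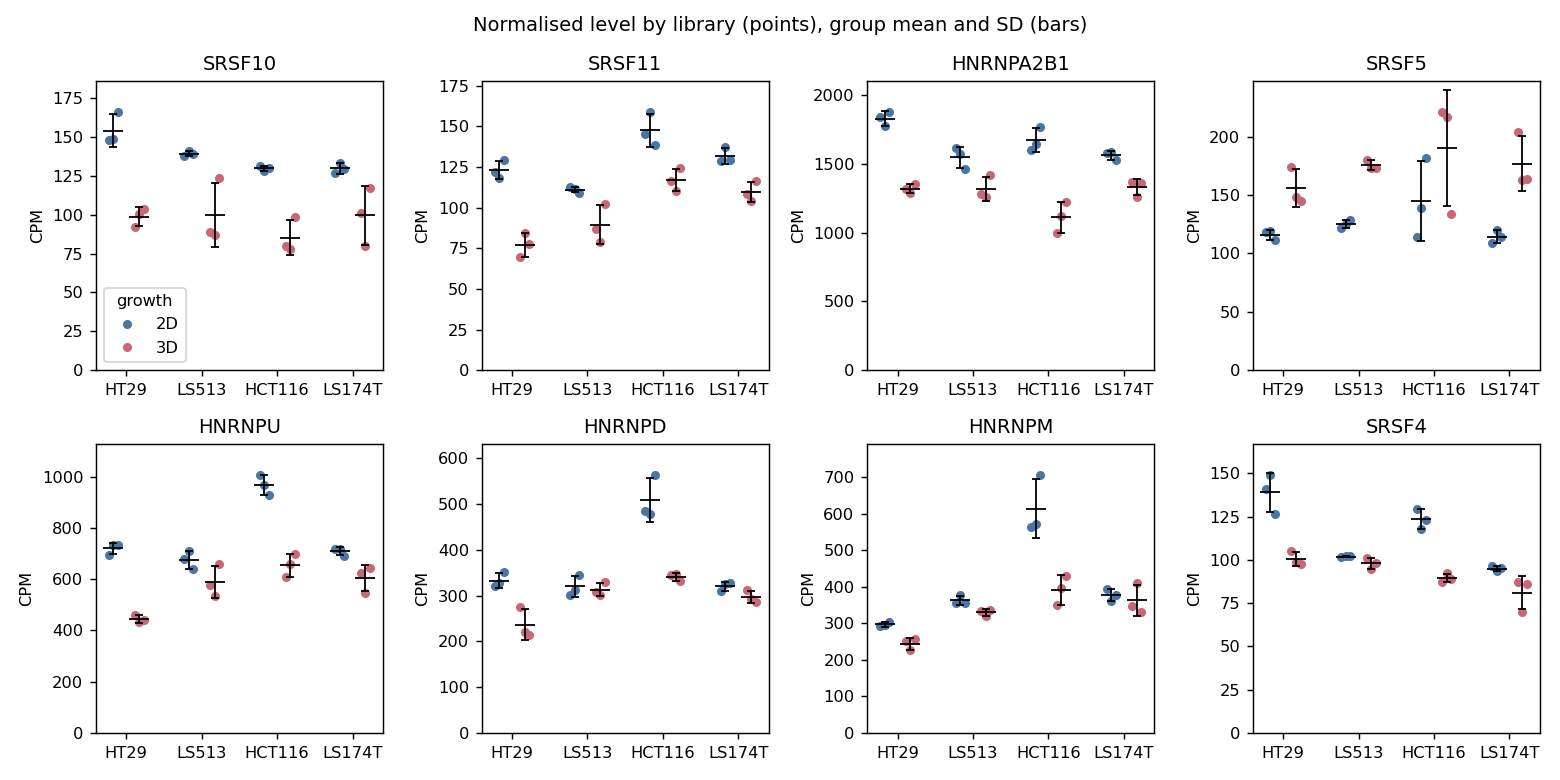
CPM of 8 members in each library (points, linear axis from 0) with the mean and SD of 3 libraries, for 2D (blue) and 3D (red) growth in the 4 lines. SRSF10, SRSF11 and HNRNPA2B1 are lower in all 3D groups, SRSF5 is higher in HT29, LS513 and LS174T with overlapping libraries in HCT116, and HNRNPU, HNRNPD and HNRNPM separate clearly in HT29 and HCT116.

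The closest relatives of SRSF5 are SRSF4 and SRSF6. SRSF4, which encodes SRp75, fell in HT29 (141, 149 and 127 CPM in 2D, 105, 98.5 and 97.8 in 3D, -0.47 ± 0.081, adjusted p = 9.52e-05), in HCT116 (129.5, 118 and 123 and 87.4, 92.2 and 88.8, -0.46 ± 0.081, adjusted p = 0.000188) and in LS174T (-0.23 ± 0.081, adjusted p = 0.048), a call lost without 2D replicate 1, 2 or 3 or 3D replicate 2 (adjusted p up to 0.343). Its LS513 libraries hardly differed, at 102, 102 and 102 CPM in 2D and 101, 94.9 and 98.0 in 3D (-0.057 ± 0.081). SRSF6, which encodes SRp55, fell in HCT116 alone (377, 353 and 397 CPM in 2D and 322, 309 and 335 in 3D, -0.22 ± 0.083, adjusted p = 0.0479). In HT29, LS513 and LS174T the values were 0.12, 0.15 and 0.13, none past the threshold. The HCT116 call was lost without 2D replicate 1 or 3 or 3D replicate 1 or 2 (adjusted p up to 0.155). The test of a difference between lines gave adjusted p = 0.0622 for SRSF6 and 0.026 for SRSF4.

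Among the SR proteins first described as general splicing activators, SRSF1 (ASF/SF2, which acts as an oncogene in several tumours) had log2 fold changes between -0.37 in LS513 and -0.25 in LS174T. None passed the threshold in a single line with all libraries, and the mean of the 4 lines did (-0.32 ± 0.067, adjusted p = 0.00039). Its HCT116 libraries were uneven, at 413, 412 and 286 CPM in 2D and 255, 271 and 359 in 3D, where replicate 3 was the lowest in 2D and the highest in 3D. In HCT116 SRSF1 was at -0.48 without 2D replicate 3 (adjusted p = 0.00651) and -0.49 without 3D replicate 3 (adjusted p = 0.00954), past the threshold. In HT29 SRSF1 was at -0.39 without 2D replicate 1 (adjusted p = 0.0473) and -0.41 without 3D replicate 4 (adjusted p = 0.0362), past the threshold. In LS513 SRSF1 was at -0.48 without 3D replicate 3 (adjusted p = 0.0183), past the threshold. With the length trend described below removed, SRSF1 was lower in HT29, LS513 and HCT116, and DESeq2 called it in LS513 (adjusted p = 0.0434). SRSF2 (SC35, a marker protein of nuclear speckles) fell in HCT116 (360.2, 325 and 466 CPM in 2D, 346, 279 and 282 in 3D, -0.34 ± 0.11, adjusted p = 0.0222), although its libraries overlapped, and the call was lost without 2D replicate 3 or 3D replicate 2 or 3 (adjusted p up to 0.194). SRSF3, the smallest SR protein, and its relative SRSF7 were called in no line with all libraries. Their log2 fold changes lay between -0.17 and 0.083 for SRSF3 and between -0.13 and 0.085 for SRSF7. In HCT116 SRSF3 was at -0.28 without 3D replicate 3 (adjusted p = 0.0235), past the threshold. SRSF9 (SRp30c) rose in LS513, from 139, 138 and 139.9 to 178, 176 and 160.2 CPM (0.30 ± 0.073, adjusted p = 0.00393). SRSF8, an intronless relative of SRSF2, also rose there, from 57.5, 56.3 and 62.1 to 73.2, 69.1 and 72.2 CPM (0.29 ± 0.089, adjusted p = 0.0214), a call lost without 2D replicate 1 or 2 or 3D replicate 1 (adjusted p up to 0.0949). In HCT116 the SRSF8 value was -0.17 ± 0.090, not past the threshold, and the difference between lines had adjusted p = 0.0615. On the mean of the 4 lines SRSF8 was called without LS174T 3D replicate 2 (adjusted p = 0.0298).

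The hnRNP A/B genes encode the most abundant core proteins of hnRNP particles. HNRNPA2B1 (chr7:26173057-26201529, minus strand), whose product also binds N6-methyladenosine-marked RNA and sorts RNA into exosomes, was lower in all lines. Its level was 1598, 1644 and 1769 CPM in HCT116 in 2D and 997, 1117 and 1219 in 3D (-0.59 ± 0.082, adjusted p = 1.45e-05), where it fell by 33.5%. In HT29 it was 1838, 1770.3 and 1875 in 2D and 1316, 1286 and 1353 in 3D (-0.47 ± 0.082, adjusted p = 0.000102). In both lines every 3D library lay below every 2D library. The libraries did not overlap in LS513 (1611, 1569 and 1461 against 1283, 1255 and 1418) or LS174T (1575, 1586 and 1525 against 1370.3, 1260.5 and 1358) either, with adjusted p = 0.0444 and 0.0451. The LS513 call was lost without 2D replicate 1 or 2 or 3D replicate 1 or 2 (adjusted p up to 0.179), and the LS174T call was lost without 2D replicate 1, 2 or 3 or 3D replicate 1 or 2 (adjusted p up to 0.178). Both calls were also lost under RLE scaling (adjusted p = 0.0543 in LS513 and 0.0508 in LS174T) and with all genes of at least 1 count (0.183 and 0.194). The same held with the replicate number as a block (0.12 and 0.116) and in fits to the 6 libraries of the line (0.0532 and 0.186).

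HNRNPA3, a close relative with a role in cytoplasmic RNA transport, fell in HT29 (302, 288 and 338 CPM in 2D, 206, 189 and 192 in 3D, -0.66 ± 0.085, adjusted p = 2.62e-06), HCT116 (-0.49 ± 0.084, adjusted p = 0.000145) and LS513 (-0.28 ± 0.084, adjusted p = 0.016), and its LS174T value was -0.14 ± 0.084. The LS513 call was lost without 2D replicate 3 or 3D replicate 1 or 2 (adjusted p up to 0.12). HNRNPA0, an intronless gene whose product binds AU-rich mRNA, fell in HCT116 (-0.38 ± 0.080, adjusted p = 0.00107), HT29 (-0.23 ± 0.080) and LS513 (-0.23 ± 0.080), with LS174T libraries at 202, 191 and 194 CPM in 2D and 194, 197 and 189 in 3D. The HT29 call was lost without 2D replicate 3 or 3D replicate 3 (adjusted p up to 0.192), and the LS513 call was lost without 2D replicate 2 or 3 or 3D replicate 1 or 2 (adjusted p up to 0.157). HNRNPA1, the best studied hnRNP gene, was called in no line. The values were -0.011 ± 0.095 in HT29, 0.034 ± 0.095 in HCT116, 0.024 ± 0.095 in LS513 and 0.21 ± 0.095 in LS174T on the log2 scale, at 900.4 ± 130.2 CPM in HCT116 in 2D and 922 ± 21.4 in 3D.

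The HNRNPA1 copies were low. HNRNPA1L2 was between 1.79 and 4.39 CPM in the 24 libraries and fell in HCT116 (-0.53 ± 0.19, adjusted p = 0.039), a call lost without 2D replicate 1 or 2 or 3D replicate 1 or 3 (adjusted p up to 0.12). In HT29 HNRNPA1L2 was at -0.51 without 3D replicate 3 (adjusted p = 0.0436), past the threshold. HNRNPA1P48, which is named as a pseudogene but annotated as protein-coding, was between 0.431 and 3.89 CPM and fell in HT29 (2.54, 2.03 and 3.89 CPM in 2D, 2.08, 1.52 and 1.74 in 3D, -0.64 ± 0.23, adjusted p = 0.0319), with overlapping libraries, a call lost without 2D replicate 3 or 3D replicate 3 or 4 (adjusted p up to 0.29). Reads that aligned more than once were removed by the authors, so reads shared by HNRNPA1, its copies and the 74 pseudogenes named for it are missing from all of them, and these 3 levels are uncertain. Those pseudogenes held 0.260% as many counts as HNRNPA1 itself.

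HNRNPAB and HNRNPD belong to a group whose products bind AU-rich RNA, and AUF1, the product of HNRNPD, promotes the decay of such mRNAs. HNRNPAB (chr5:178204507-178211163, plus strand), whose promoter stretch shown above holds 2 CCAAT matches, fell in HT29 (401, 433 and 416 CPM in 2D, 329, 336 and 323 in 3D, -0.34 ± 0.072, adjusted p = 0.000662), HCT116 (403, 353 and 415 and 282, 285 and 307, -0.42 ± 0.072, adjusted p = 0.000138) and LS513 (-0.20 ± 0.072, adjusted p = 0.0427). The LS513 call was lost without 2D replicate 1, 2 or 3 or 3D replicate 1, 2 or 3 (adjusted p up to 0.15). HNRNPD fell in HCT116, from 485, 478 and 564 CPM in 2D to 345, 347 and 331 in 3D (-0.58 ± 0.091, adjusted p = 5.79e-05), and in HT29, from 320.1, 327 and 351 to 276, 219.7 and 215 (-0.49 ± 0.091, adjusted p = 0.000192). In both lines the 3D libraries were all below the 2D libraries. In LS513 (-0.035 ± 0.091) and LS174T (-0.11 ± 0.091) its libraries overlapped. HNRNPDL, its neighbour on chromosome 4, fell in HCT116 alone (-0.35 ± 0.13, adjusted p = 0.0395), a call lost without 2D replicate 1 or 3 or 3D replicate 2 or 3 (adjusted p up to 0.142).

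The genes of the H/F group, whose products bind runs of G, did not move together. HNRNPH1 fell in HT29 (-0.52 ± 0.11, adjusted p = 0.000618) and so did HNRNPH3 (-0.51 ± 0.13, adjusted p = 0.00291). HNRNPH2 rose in HCT116 (85.7, 94.7 and 98.0 CPM in 2D, 101, 122 and 112 in 3D, 0.27 ± 0.084, adjusted p = 0.0206), had values above 0 in the other lines (0.19, 0.12 and 0.13 in HT29, LS513 and LS174T) and rose on the mean of the 4 lines. In HT29 HNRNPH2 was at 0.28 without 2D replicate 3 (adjusted p = 0.0229), past the threshold. The HCT116 call was lost without 2D replicate 1 or 3D replicate 2 (adjusted p up to 0.133). HNRNPF was called in no line, with log2 fold changes between -0.083 and 0.10.

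HNRNPU, also known as scaffold attachment factor A, binds RNA and chromatin. In HT29 it fell from 694, 733 and 734 CPM in 2D to 461, 432 and 441 in 3D (-0.70 ± 0.085, adjusted p = 1.46e-06), or by 38.2%. HCT116 had 1008, 966 and 928 CPM in 2D and 607, 659 and 697 in 3D (-0.56 ± 0.085, adjusted p = 3.43e-05). Neither line had overlapping libraries. The LS174T values did not overlap between 2D and 3D (719, 719.6 and 691 and 624, 547 and 644) and just missed the threshold (adjusted p = 0.0522), while those of LS513 overlapped (-0.19 ± 0.084). In LS174T HNRNPU was at -0.28 without 3D replicate 3 (adjusted p = 0.0271), past the threshold. In LS513 HNRNPU was at -0.28 without 3D replicate 3 (adjusted p = 0.0212), past the threshold. Its relatives HNRNPUL1 and HNRNPUL2 fell in the same 2 lines. For HNRNPUL1 the HT29 values were 849, 881 and 855 CPM in 2D and 705, 563 and 631 in 3D (-0.44 ± 0.084, adjusted p = 0.000224), and the HCT116 difference was smaller (-0.26 ± 0.084, adjusted p = 0.0217) and was lost without 2D replicate 1 or 2 or 3D replicate 1 or 3 (adjusted p up to 0.0824). For HNRNPUL2 they were -0.32 ± 0.069 in HT29 and -0.37 ± 0.069 in HCT116, against 0.071 ± 0.069 in LS513 and 0.060 ± 0.069 in LS174T.

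Of the remaining hnRNP genes, HNRNPM fell in HCT116 from 564, 572 and 707 CPM to 349.7, 396 and 430.0 (-0.65 ± 0.096, adjusted p = 2.89e-05), or by 36.2%, and by less in HT29 (-0.28 ± 0.096, adjusted p = 0.0218), where the call was lost without 2D replicate 3 or 3D replicate 3 (adjusted p up to 0.101). HNRNPK, which binds C-rich RNA and DNA, fell in HCT116 (1018, 986 and 959 CPM in 2D, 714, 807 and 878 in 3D, -0.30 ± 0.076, adjusted p = 0.00427). In HT29 HNRNPK was at -0.22 without 3D replicate 4 (adjusted p = 0.0494), past the threshold. HNRNPL, which binds CA repeats, fell in HT29 (-0.33 ± 0.085) and HCT116 (-0.34 ± 0.085), and HNRNPLL in HCT116 (43.5, 44.2 and 46.2 CPM in 2D, 29.7, 30.1 and 35.9 in 3D, -0.49 ± 0.10). HNRNPR fell in HT29 (-0.49 ± 0.089) and HCT116 (-0.33 ± 0.088), with adjusted p = 0.052 in LS513 and 0.0513 in LS174T. In LS513 HNRNPR was at -0.34 without 3D replicate 3 (adjusted p = 0.00671), past the threshold. In LS174T HNRNPR was at -0.30 without 3D replicate 3 (adjusted p = 0.0242), past the threshold. HNRNPC, whose product binds uridine tracts, was called in no line with all libraries and ranged from -0.20 in HCT116 to 0.0025 in LS174T. In HCT116 HNRNPC was at -0.30 without 3D replicate 3 (adjusted p = 0.0308), past the threshold. On the mean of the 4 lines HNRNPC was called without HCT116 3D replicate 3 or LS174T 3D replicate 2 (adjusted p = 0.0473 and 0.0367).

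The growth effect differed between lines for 7 members (HNRNPUL2, HNRNPUL2-BSCL2, HNRNPD, HNRNPU, HNRNPA3, HNRNPM and SRSF4) by the test on 3 degrees of freedom, a share near the 17.1% of all tested genes that passed it. For 5 of them (HNRNPUL2, HNRNPUL2-BSCL2, HNRNPD, HNRNPM and HNRNPU) the 2 most negative values were those of HT29 and HCT116, each called, with neither LS513 nor LS174T called. The smallest adjusted p was that of HNRNPUL2 (0.00137), followed by HNRNPUL2-BSCL2 (0.00426), HNRNPD (0.00554) and HNRNPU (0.00669). HNRNPA3 (0.0116) ranged from -0.66 in HT29 to -0.14 in LS174T, and HNRNPM (0.0117) from -0.65 in HCT116 to -0.056 in LS174T. For SRSF10 (adjusted p = 0.651) and SRSF5 (0.838) no difference between lines was detected, which does not show that the effects were equal.

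Averaged over both growth conditions, the level of 30 members (7 SR and all 23 tested hnRNP genes) differed between lines, where 95.7% of all tested genes did. The spread had a median ratio of 1.39 between the highest and the lowest line. HCT116 was the highest line for 17 members, HT29 for 11, LS513 for 4 and LS174T for 2. These counts include members that did not pass the test, and the highest line was not counted over all tested genes. In every member but HNRNPUL1 the libraries of the highest line overlapped those of the next. Neither this overlap nor the ratio between lines was taken over all tested genes, so both describe the members only. HNRNPUL1 had the smallest p (adjusted p = 2.1e-15), with 747 CPM in HT29 and 380.5, 368 and 320.2 in LS174T, LS513 and HCT116. All HT29 libraries lay above all others, and the 3 other lines overlapped. SRSF6 stood at 349 CPM in HCT116, 278 in HT29, 211 in LS174T and 188 in LS513 (adjusted p = 1.82e-12), and both former lines lay above both latter ones without overlap. HNRNPUL2-BSCL2 was highest in LS174T (311 CPM) and lowest in LS513 (204, adjusted p = 1.58e-11), and each line overlapped its neighbour in that order. The largest ratio between lines was that of HNRNPA1P48 (4.36), at 2.30 CPM in HT29 and 0.527 in LS174T. SRSF1, SRSF5, SRSF7 and SRSF10 did not pass the test between lines, and SRSF7 varied least, from 207 to 225 CPM.

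Genes that work with the members were followed in lists. On the mean of the 4 lines, 23.9% of all tested genes were lower and 26.6% were higher. Among genes with a mean of at least 20 CPM, 36.8% were lower. The length trend described below was not removed from the list counts. Of 24 genes of SR-related and SR-like regulators, 21 fell on the mean of the 4 lines and 0 rose, with a median log2 fold change of -0.26 against 0.044 over all tested genes, and the largest fall was that of SON (-0.64 ± 0.062), which organises nuclear speckles. Per line, 19 fell in HT29, 16 in HCT116, 7 in LS174T and 6 in LS513. The shares of all tested genes that were lower were 19.6%, 12.3%, 9.15% and 9.9% in this order. Of 16 kinases, phosphatases and importers of SR proteins, 10 fell and 1 rose (median -0.21), with TNPO1, an importer of hnRNP proteins, at -0.74 ± 0.091 and the kinase CLK3 at 0.35 ± 0.052. Among 13 hnRNP proteins that carry other symbols, 6 fell and 1 rose (median -0.075). The largest fall was that of TARDBP (-0.49 ± 0.059), and the 1 that rose was the cold-inducible CIRBP (0.35 ± 0.071). Of 24 other regulators of alternative splicing 14 fell and 1 rose (median -0.19, CELF1 -0.52 ± 0.082, RBM4 0.18 ± 0.051). In the core spliceosome 23 of 42 fell and 5 rose (median -0.13, AQR -0.40 ± 0.051, SNRPD2 0.49 ± 0.079), and of 15 genes of nonsense-mediated decay and the exon junction complex 7 fell and 0 rose (median -0.13, SMG1 -0.71 ± 0.14).

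Other gene groups moved with the growth condition as well, and the same background shares apply to them. Of 16 proliferation and MYC genes, 14 fell and 1 rose on the mean of the 4 lines (median -0.36, TOP2A -0.85 ± 0.088, MYC 0.24 ± 0.067), with 10, 12, 11 and 6 falling in HT29, LS513, HCT116 and LS174T. Of 14 genes of the hypoxia response 13 rose and 0 fell (median 1.21, NDRG1 4.05 ± 0.12), and of 12 epithelial markers 8 rose and 1 fell (median 0.36, KRT20 2.04 ± 0.099, KRT18 -0.19 ± 0.072). Among the 5 tested markers of other cell types 1 rose, the leukocyte marker CD14 (1.54 ± 0.60), at up to 15.1 CPM. The summed level of the 12 markers was 7.67 to 9.29 CPM in 2D and 12.7 to 18.8 in 3D in HT29, 0.450 to 0.725 and 1.18 to 1.46 in LS513, 13.6 to 16.0 and 11.1 to 23.6 in HCT116, and 0.449 to 0.770 and 0.674 to 1.28 in LS174T. The part of these groups in the levels of the SR and hnRNP genes was not tested.

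Transcript length also moved with the growth effect. Over 14700 tested protein-coding genes, the median log2 fold change on the mean of the 4 lines was 0.28 for genes whose longest transcript is up to 2 kb, 0.080 from 2 to 4 kb, -0.066 from 4 to 6 kb and -0.21 above 6 kb, and the medians stepped down in this order in each line. Across these genes the Spearman correlation between length and log2 fold change was -0.310 in HT29, -0.276 in HCT116, -0.244 in LS513 and -0.401 in LS174T. It is given as a description, since genes share the same libraries and are not independent replicates. Of the 34 members, 28 lay below the median of their own length class on the mean of the 4 lines, 24 in HT29, 30 in HCT116, 22 in LS513 and 18 in LS174T. In LS174T, the 5 members longer than 6 kb had a median of -0.23, where all genes of that length had -0.25. When the trend with length was removed within each library, in a fit added after the data were seen, 18, 4, 20 and 2 members were lower in HT29, LS513, HCT116 and LS174T and 19 on their mean, of which 15, 3, 19, 1 and 19 were also lower without this step. The corresponding shares of all tested genes were 20%, 11.1%, 14.9%, 8.24% and 24.5%. SRSF10 and HNRNPAB were then lower in all 4 lines, and SRSF11 in all but LS174T, at -0.23 (adjusted p = 0.0528). HNRNPA2B1 kept its calls in HT29 and HCT116 and was -0.12 (adjusted p = 0.339) in LS513 and -0.047 (adjusted p = 0.763) in LS174T. HNRNPA0 was no longer called in any line, with 0.049 (adjusted p = 0.799) in HT29, and SRSF4 was called in HCT116 alone, at -0.21 (adjusted p = 0.0636) in HT29 and 0.023 (adjusted p = 0.908) in LS174T. HNRNPUL2 was no longer called in HT29, at -0.19 (adjusted p = 0.0516), and HNRNPU in LS174T, just short of the threshold without this step, was at 0.15 (adjusted p = 0.3). SRSF5 kept its rise in 3 lines, with 0.59 (adjusted p = 0.00653) in LS174T, whereas SRSF9 was at -0.0014 (adjusted p = 1) on the mean of the 4 lines. HNRNPH2 was no longer called in HCT116, at 0.15 (adjusted p = 0.199), or on the mean, at 0.066 (adjusted p = 0.236).

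**Figure D5:**
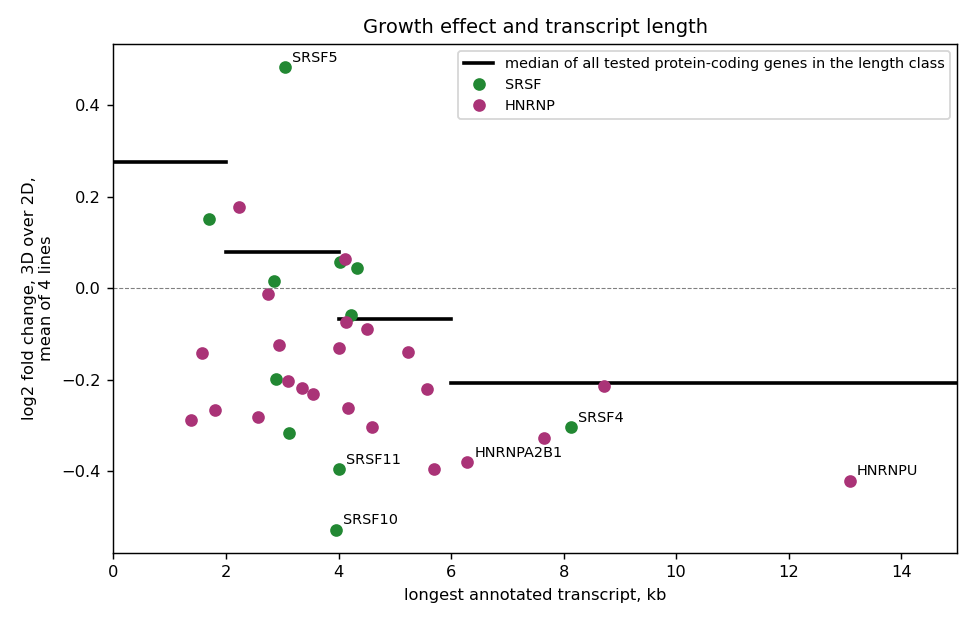
Log2 fold change of 3D over 2D growth on the mean of the 4 lines against the length of the longest annotated transcript, for the 34 tested members (points, green for SR and purple for hnRNP genes), with the median of all tested protein-coding genes in 4 length classes (black bars, the last running on to longer transcripts). The bars step down with length, and 28 of the 34 points lie below the bar of their class.

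Some members share exons with other genes. HNRNPUL2-BSCL2 shares all of its exonic bases with HNRNPUL2 and BSCL2 and still held 187135 counts, near the 189257 of HNRNPUL2, so reads on shared exons were counted for each gene. SRSF1 shares 56.6% of its exonic bases with AC015813.2 on the same strand, and HNRNPH2 16.3% with the read-through gene RPL36A-HNRNPH2, which makes their counts uncertain. SRSF9 (46.2% with GATC) and SRSF2 (36.7% with MFSD11) overlap genes on the other strand. The library kit keeps the strand, and AC079305.3, which lies antisense to HNRNPA3, had 0 counts in all 24 libraries, but the strand setting of the counting is not given in the sources used here.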

How the data were processed

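The authors cultured the cells in medium with 5% FBS, made strand-keeping polyA libraries (TruSeq Stranded mRNA) and sequenced single reads, multiplexed, on a NextSeq instrument. They trimmed with Trim Galore 0.4.1, aligned with STAR to an Ensembl 91 genome, removed multi-mapped reads and counted with HTSeq 0.5.3. The processing notes list hg19. The deposited values are raw read counts per gene, in 8 technical replicates per library (7 for HT29 3D replicate 4), which were summed. The HT29 3D libraries are numbered 1, 3 and 4. Identifiers were named from GENCODE 29 (57980 of 58243 matched), which also gave GRCh38 positions and lengths.

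The 24 libraries were fitted together with edgeR 4.0.16 (R 4.3.3): filterByExpr, TMM, 1 coefficient per group, the robust quasi-likelihood test and Benjamini-Hochberg adjustment over 19387 genes. A call is an adjusted p under 0.05. The test was checked on simulated counts with log2 fold changes planted in HT29. For sizes of 0.25, 0.5 and 1, edgeR recovered 2 of 67, 24 of 67 and 56 of 66. The test of a difference between lines recovered 0, 7 and 47 of them. A change of 0.5 or less could therefore be missed, also in members that were not called. DESeq2 1.42.0 was an alternative. Members called alike in at least 3 lines, those with the smallest p in each test and those highest or lowest per kb were to be named with values, and the others are described in brief. The members and lists were chosen with earlier results of these data known. Technical replicates of a library differed by no more than sampling noise (chi-square 0.999 to 1.029 times its expectation), libraries of a group by more (3.237 to 17.94 times).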

Additional observations from a re-analysis of the deposited data

Results flagged for a closer look

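The growth effect of 7 members differed between the 4 lines in the test on 3 degrees of freedom (edgeR's quasi-likelihood test, adjusted over all tested genes). That is 7 of 34, a share near the 17.1% of all tested genes that passed the same test. The adjusted p was 0.00137 for HNRNPUL2 and 0.00426 for the read-through gene HNRNPUL2-BSCL2, which counts the same reads in part. It was 0.00554 for HNRNPD, 0.00669 for HNRNPU, 0.0116 for HNRNPA3, 0.0117 for HNRNPM and 0.026 for SRSF4.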

How the results depend on the processing

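The counts of members lower in 3D in HT29, HCT116 and on the mean of the 4 lines stayed within 1.5 times of the values in the report under every alternative but the fold cutoffs, and the count of members that differ in level between lines did so under all alternatives run. Under median-of-ratios (RLE) scaling 2 members were higher in HT29, 3 were lower in LS513 and 2 were lower in LS174T. Testing all genes with at least 1 count gave 1 higher and 2 lower in LS513, 1 lower in LS174T and 4 members whose growth effect differed between lines. DESeq2 gave 3 members higher in HT29 and 15 whose growth effect differed between lines. On the simulated counts, the test of a difference between lines called 22 unchanged genes with DESeq2 and 2 with edgeR. The shares of all tested genes under the settings of this paragraph are not given here, so these counts have no background beside them. Fits to the 6 libraries of a line gave 0 higher in HCT116 and 0 lower in LS174T. With the cutoffs of the study (log2 fold change under -0.5 or over 1.5), 0 members were higher in any line or on the mean, and 7, 0, 6, 0 and 1 were lower in HT29, LS513, HCT116, LS174T and on the mean. An absolute log2 fold change over 0.5 gave the same lower counts, 0 higher in HT29, LS513, HCT116 and on the mean, and 1 higher in LS174T. The cause of these differences was not tested, apart from the cutoffs, which remove smaller changes by construction.

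With 1 library left out at a time, the counts of higher and lower members ranged from 0 to 1 and 15 to 19 in HT29, 1 to 3 and 0 to 8 in LS513, 0 to 2 and 17 to 20 in HCT116, 1 to 1 and 0 to 6 in LS174T, and 3 to 4 and 22 to 23 on the mean. In HT29, 0 were higher without 2D replicate 1 or 2 or 3D replicate 1. In LS513, 1 was higher without 2D replicate 1 or 2 or 3D replicate 1. In HCT116, 0 were higher without 2D replicate 1 or 3D replicate 2 and 2 without 2D replicate 3 or 3D replicate 3. Between 6 and 10 members differed in growth effect between lines and between 28 and 31 in level.

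Same-numbered libraries did not deviate together (correlations from -0.1464 to 0.0938 over 11 pairs). With 3 libraries in a group, this cannot show whether same-numbered libraries were grown or handled together. With the replicate number as a block, 0 members were higher in HT29, 1 was higher and 3 were lower in LS513, 1 was lower in LS174T and 2 differed in growth effect between lines.

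The length trend, the sum over library totals and the restriction to genes of at least 20 CPM were chosen after seeing the data. With the length trend removed, 0 members were higher in HCT116, 2 were lower in LS174T and 1 was higher on the mean of the 4 lines. Of the 170 log2 fold changes 22 changed sign, 19 of them past the threshold in neither fit. The other 3 were those of HNRNPA0 in HT29 (0.049, -0.23 before), SRSF4 in LS174T (0.023, -0.23 before) and SRSF9 on the mean (-0.0014, 0.15 before). Of the 170, 157 kept their direction and their side of the threshold under DESeq2, 156 under RLE scaling, 142 with all genes, 153 with the block and 128 with the length trend removed. Depth limits HNRNPA1L2 and HNRNPA1P48 most, at a few CPM.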
